A study of Saccharomyces cerevisiae with 35 samples.

Results

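SNZ1 (YMR096W), SNZ2 (YNL333W), SNZ3 (YFL059W), SNO1 (YMR095C), SNO2 (YNL334C) and SNO3 (YFL060C) are the 6 budding yeast genes of the SNZ and SNO families, out of 5843 features measured. They were chosen on measured values: the rise of SNZ1 in rapamycin-treated wild-type cells brought the family to notice, and the other 5 genes were added by family name. The levels of wild-type cells under drug against untreated cells are therefore given as a description, with no test. The study grew FY4/5 yeast in YPD at 30 °C and added rapamycin at 200 ng/mL. Wild-type cells and cells with the FPR1 gene deleted shared 1 flask, so both genotypes met the same medium and drug. FPR1 encodes the protein through which rapamycin binds the TORC1 kinase. Cells of 2 cultures were collected into RNAlater without pause from 20 min before to 60 min after the drug, and each of the 8 10-min intervals per culture gave 1 single-cell RNA-seq library. Bulk RNA-seq covered 3 further cultures at 11 times from 0 to 120 min. Wild-type cells carried 72 strain codes and deletion cells 6. All single cells of a culture came from that flask, so a library holds both genotypes of 1 culture and interval.

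Pyridoxal phosphate, the active form of vitamin B6, is the cofactor of transaminases and of many other enzymes of amino acid metabolism. An SNZ protein is the synthase subunit of the fungal enzyme that builds it, and an SNO protein is the glutaminase subunit that feeds ammonia from glutamine to the synthase. In budding yeast SNZ1 and SNO1 are known for their rise as growth stops or amino acids run short, and the subtelomeric SNZ2, SNZ3, SNO2 and SNO3 genes for their link to thiamine synthesis. Rapamycin holds TORC1 inactive, which releases Gln3 and Gat1, the GATA activators of nitrogen-source genes, and Gcn4, the activator of amino acid synthesis genes.

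Each SNZ gene lies head to head with its SNO partner in the RefSeq R64 annotation, the same assembly as the sacCer3 build named in the submitters' processing notes. SNZ1 occupied bases 458408 to 459301 of the plus strand of chromosome XIII and SNO1 bases 457285 to 457959 of the minus strand, with 448 bases between their start codons. SNZ2 (XIV, 13267 to 14163, plus) and SNO2 (XIV, 12208 to 12876, minus) were 390 bases apart. SNZ3 (VI, 11363 to 12259, plus) and SNO3 (VI, 10301 to 10969, minus) were 393 bases apart. The other ends of SNO1 and SNZ1 face genes on the opposite strand at a short distance: CTF13, a kinetochore protein gene, ended 23 bases from the end of SNO1, and MTG1, a gene for a mitochondrial ribosome assembly GTPase, ended 122 bases from the end of SNZ1.

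**Figure D1:**
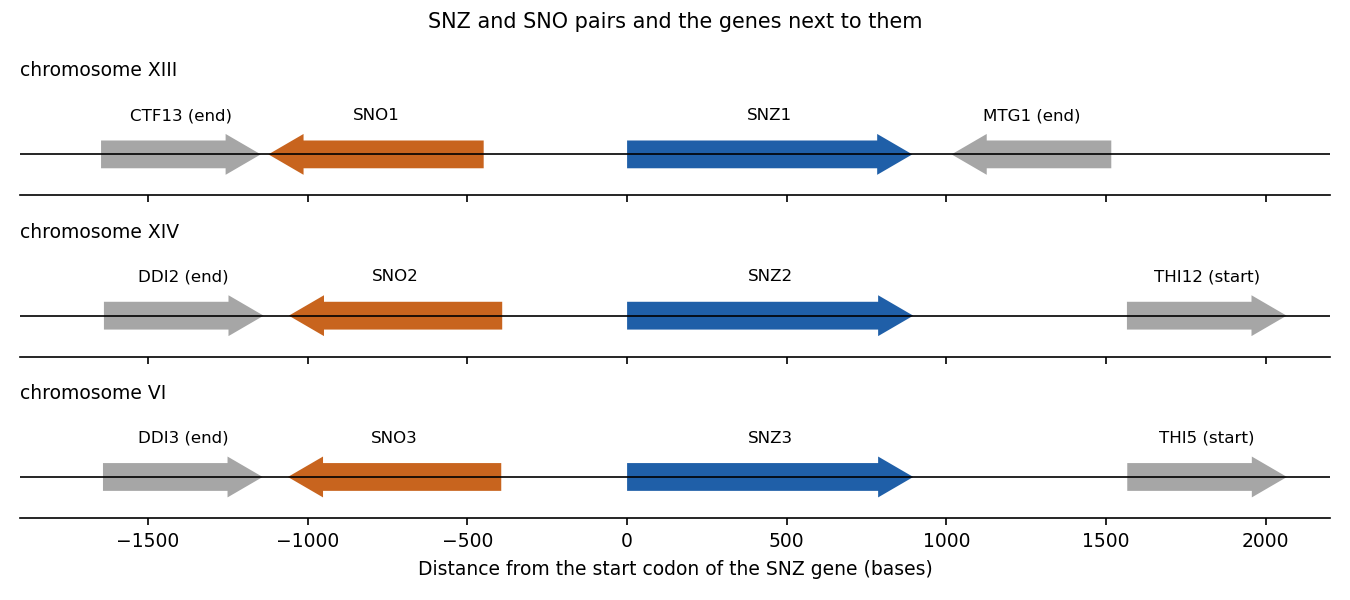
Map of the 3 SNZ and SNO gene pairs, drawn to scale with the x axis in bases from the start codon of the SNZ gene. Arrows show coding sequences and their direction, and the gray neighbouring genes are drawn only as the nearest 500 bases. CTF13 and MTG1 point at the ends of SNO1 and SNZ1.

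The stretch between SNO1 and SNZ1 held letters that the other pairs lacked. Upstream windows of 300 bases before the start codon were searched on both strands for TGACTC, the core bound by Gcn4, and for GATAAG, the core bound by GATA factors. The SNZ1 window held TGACTC at 254 to 249 and at 179 to 174 bases before the start codon, and the window of SNO1, which overlaps it, held these and another match at 149 to 144 bases before its own start. The windows of SNZ2, SNZ3, SNO2 and SNO3 held none, and GATAAG was in none of the 6 windows. Among 6020 windows of this length over the genome, 7.7% held TGACTC, 0.6% held it at 2 or more places, and 14.6% held GATAAG. A match is a string of letters and was not tested as a binding site. The windows of SNZ1 (chrXIII:458108-458407, plus strand) and SNZ2 (chrXIV:12967-13266, plus strand) are shown to compare the promoter with the letters to one without them, TGACTC in capitals.
SNZ1: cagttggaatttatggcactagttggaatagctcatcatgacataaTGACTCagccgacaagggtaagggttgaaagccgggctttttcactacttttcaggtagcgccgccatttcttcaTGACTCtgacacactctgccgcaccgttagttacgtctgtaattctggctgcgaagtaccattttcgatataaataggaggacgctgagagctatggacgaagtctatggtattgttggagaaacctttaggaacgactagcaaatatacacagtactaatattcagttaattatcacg
SNZ2: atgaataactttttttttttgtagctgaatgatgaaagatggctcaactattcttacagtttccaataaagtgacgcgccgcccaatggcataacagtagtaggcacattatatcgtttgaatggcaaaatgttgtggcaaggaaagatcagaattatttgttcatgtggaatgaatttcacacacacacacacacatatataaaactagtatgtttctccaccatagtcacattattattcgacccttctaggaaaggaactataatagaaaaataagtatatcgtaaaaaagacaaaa

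SNZ2 and SNZ3 are near-identical copies: their coding sequences of 897 bases differed at 6 positions, an identity of 99.33%. SNO2 and SNO3 differed at 2 of 669 bases (99.7%). SNZ1 matched SNZ2 at 71.08% and SNO1 matched SNO2 at 60.48% of aligned bases. Of the 6 differences between SNZ2 and SNZ3, 5 lay near the 3′ end that the assay reads, and counted from the first base of the start codon they were T702C, T750C, T777C, G789A and A796G, with the SNZ2 base first. These stretches (chrXIV:13962-14066 and chrVI:12058-12162, both plus strand) are shown with the differing bases in capitals, since a read must cover a difference to tell the copies apart. The 200 bases after the stop codon held another 3 differences in 201 aligned bases.
SNZ2: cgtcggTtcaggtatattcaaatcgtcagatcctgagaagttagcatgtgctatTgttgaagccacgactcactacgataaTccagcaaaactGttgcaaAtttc
SNZ3: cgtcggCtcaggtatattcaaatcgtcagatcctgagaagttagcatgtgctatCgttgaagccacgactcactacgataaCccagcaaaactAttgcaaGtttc

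Runs of 31 bases tell how well reads can be placed. Of such runs in the last 300 coding bases, 60.0% in SNZ2 and SNZ3 occurred elsewhere in the genome, against all 270 runs in SNO2 and SNO3 and none in SNZ1 and SNO1. The labels and notes do not say how reads that match several genes were counted. The split of counts between SNZ2 and SNZ3, and between SNO2 and SNO3, is therefore uncertain, and SNZ2 and SNZ3 are also given summed.

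The single-cell tables held 173347 cells (the study's design text gives 173361), 162529 of them wild type and 10818 with the deletion. Wild-type cells per library ranged from 1693 to 14688 with a median of 1729 to 5435 unique molecular identifiers (UMIs, each standing for 1 captured RNA molecule) per cell, and deletion cells from 444 to 911 with 2334 to 6234. UMIs were summed per library and genotype and scaled with edgeR's TMM factors to CPM, the UMIs of a gene relative to the effective total of its sum, giving 2 sums per genotype and interval. The sums of wild-type cells ranged from 3993298 to 69114350 UMIs, and those of deletion cells from 1501368 to 5191196. Of 169649 barcodes, 3646 (2.15%) occurred in 2 or more libraries. FPR1, the deleted gene, had 1158 to 1360 CPM in untreated wild-type sums and 14.9 to 33.1 CPM in untreated deletion sums. Because a 3′ assay counts molecule ends, levels were not divided by gene length.

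SNZ1, the synthase gene of the chromosome XIII pair, had the largest fitted difference from untreated wild-type cells of all genes fitted, at the end of the hour of drug. Wild-type SNZ1 levels were 5.49 and 6.54 CPM (culture 1 and culture 2) at -20 to -10 min, 6.94 and 5.78 CPM at -10 to 0 min and 5.15 and 5.56 CPM at 0 to 10 min. They were 11.7 and 11.6 CPM at 10 to 20 min, 41.0 and 33.0 CPM at 20 to 30 min, and 191 and 182 CPM at 30 to 40 min. They reached 591 and 558 CPM at 40 to 50 min and 1275 and 1282 CPM at 50 to 60 min. Values of the first 10 min of drug lay within or just below the untreated range, and from 10 min on each interval was above the one before in both cultures. The mean rose from 6.19 ± 0.668 CPM (SD, n = 4 untreated sums) to 1278 ± 4.88 CPM (SD, n = 2). Against untreated cells the fitted log2 difference was -0.21, 0.91, 2.58, 4.91, 6.53 and 7.69 over the 6 treated intervals, and the last of these was the highest of 5549 genes; this is the contrast by which SNZ1 was chosen.

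SNO1, the glutaminase partner, followed at a far lower count level. Its wild-type levels were 0.508 to 0.632 CPM in the 4 untreated sums, 0.280 and 0.689 CPM at 0 to 10 min and 0.539 and 0.779 CPM at 10 to 20 min. They were 2.16 and 1.64 CPM at 20 to 30 min, 3.56 and 4.45 CPM at 30 to 40 min, 10.3 and 9.18 CPM at 40 to 50 min and 14.2 and 25.0 CPM at 50 to 60 min. The sums up to 20 min overlapped, and all later ones lay above them. The last pair rested on 71 and 1772 UMIs. The log2 difference of SNO1 from untreated cells was 1.70 at 20 to 30 min and 5.16 in the last interval, where it ranked 27 of 5549 genes. SNZ1 had 8.07 to 18.4 UMIs for each SNO1 UMI in wild-type sums up to 10 min, and 89.9 and 51.2 at 50 to 60 min.

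**Figure D2:**
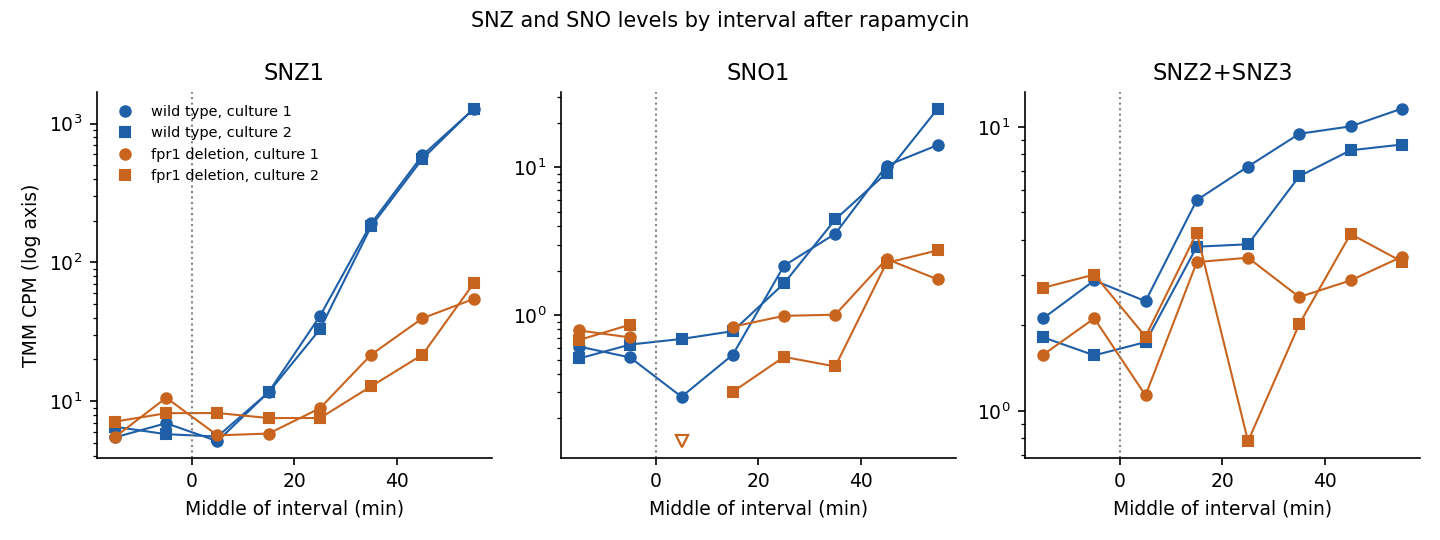
Level of SNZ1, SNO1 and the sum of SNZ2 and SNZ3 (y axis, CPM scaled by TMM, log scale) by middle of the interval (x axis, minutes from rapamycin, added at the dotted line), 1 point per culture for wild-type and deletion cells. The open triangle marks 0 UMIs of SNO1 in both deletion sums at 0 to 10 min. Wild-type SNZ1 reached 1275 and 1282 CPM at 50 to 60 min, when deletion cells had 54.5 and 70.8 CPM.

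Consecutive intervals of treated wild-type cells were then compared. For SNZ1 these steps are pieces of the rise by which it was chosen, so they are given with no test, whereas SNO1, SNZ2 and SNZ3 were added by name. Values are log2 differences with their standard error (SE) and, where tested, a Benjamini-Hochberg adjusted p of edgeR's quasi-likelihood test over 5549 genes, called at 0.05. The SNZ1 difference was 1.12 (SE 0.21) from 0–10 to 10–20 min, 2.83 (SE 0.20) from 10–20 to 20–40 min and 3.37 (SE 0.15) from 20–40 to 40–60 min. SNO1 rose in the later steps, by 2.03 (SE 0.29, adjusted p = 7.85e-06) and 2.35 (SE 0.20, adjusted p = 6.21e-09). Its first step, 0.47 with an adjusted p of 0.352, was not called, and it became 1.23 with an adjusted p of 0.0454 when culture 2 was left out at 0 to 10 min. Much of the transcriptome differed between these treated intervals. In the 3 steps 39.1%, 42.6% and 40.9% of all genes passed the test, and 19.0%, 20.4% and 22.1% passed it as higher. Passing alone is thus common.

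SNZ2 and SNZ3 were above their earlier levels from 10 min on, as SNZ1 was, and their later fitted steps were smaller than the first. Wild-type SNZ2 lay between 0.926 and 1.77 CPM before the drug and at 1.46 and 1.03 CPM at 0 to 10 min. It was 3.19 and 2.17 CPM at 10 to 20 min, 4.32 and 2.25 CPM at 20 to 30 min, 4.99 and 3.90 CPM at 30 to 40 min, 5.75 and 5.10 CPM at 40 to 50 min and 7.79 and 4.99 CPM at 50 to 60 min. SNZ3 lay between 0.492 and 1.11 CPM before the drug, at 2.33 and 1.61 CPM at 10 to 20 min and at 3.80 and 3.67 CPM at 50 to 60 min. For both copies every sum from 10 min on was above every earlier one, and culture 1 was above culture 2 in each interval from 10 min on. At 50 to 60 min the log2 difference from untreated cells was 2.32 for SNZ2 and 2.07 for SNZ3, ranking 386 and 472 of 5549 genes. The copies were the nearest to each other in order at 50 to 60 min, with a mean of 6.39 ± 1.98 CPM for SNZ2 and 3.74 ± 0.0875 CPM for SNZ3 (SD, n = 2), below SNO1 at 19.6 ± 7.67 CPM and SNZ1.

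From 0–10 to 10–20 min SNZ2 rose by 1.09 (SE 0.34, adjusted p = 0.0129) and SNZ3 by 1.22 (SE 0.34, adjusted p = 0.00632) in edgeR's test. With culture 2 left out at 0 to 10 min these were 0.86 (adjusted p = 0.134) and 1.02 (adjusted p = 0.0845), and with culture 1 left out at 10 to 20 min they were 0.79 (adjusted p = 0.160) and 0.93 (adjusted p = 0.0970). With the copies summed the step was 1.15 (adjusted p = 0.00622). From 10–20 to 20–40 min the steps of SNZ2 and SNZ3, 0.47 (adjusted p = 0.175) and 0.49 (adjusted p = 0.157), were not called. With the culture as a block they were 0.49 (adjusted p = 0.0308) and 0.50 (adjusted p = 0.0235), and SNZ2 had 0.70 (adjusted p = 0.0297) without 20 to 30 min of culture 2. From 20–40 to 40–60 min SNZ2 rose by 0.60 (SE 0.23, adjusted p = 0.0408), with no call once a single library was left out in several cases. It was 0.34 (adjusted p = 0.240) without 20 to 30 min of culture 2, 0.65 (adjusted p = 0.0581) and 0.48 (adjusted p = 0.195) without 30 to 40 min of culture 1 or culture 2, and 0.54 (adjusted p = 0.102) and 0.62 (adjusted p = 0.0672) without 40 to 50 min of culture 1 or culture 2. It was 0.45 (adjusted p = 0.166) without 50 to 60 min of culture 1 and 0.60 without either -20 to -10 min library (adjusted p = 0.0519 and 0.0515). SNZ3 had 0.41 (adjusted p = 0.161), 0.50 (adjusted p = 0.00672) with the block and 0.62 (adjusted p = 0.0494) without 20 to 30 min of culture 1, and the sum of both copies 0.52 (adjusted p = 0.0634).

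SNO2 and SNO3, the glutaminase copies, were close to undetected. Wild-type sums held 0 to 12 UMIs of SNO2 and 0 to 6 UMIs of SNO3, 34 and 29 UMIs over all 16 sums, and neither passed the filter on low counts. For both genes the highest count was in the 50 to 60 min library of culture 2, which held the most cells but not the most UMIs. With no filter SNO3 passed edgeR's test from 0–10 to 10–20 min (adjusted p = 0.0304), where 36.6% of 5765 genes passed. It went from 0 UMIs in both cultures to 5 and 4, with no fold given against 0. Of the 6 genes 4 were therefore tested in the fit with the filter. SNZ1 made up 65.3% to 73.8% of all SNZ and SNO UMIs of wild-type sums through 20 min, and 98.0% and 97.4% at 50 to 60 min.

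The rise of SNZ1 was spread over most wild-type cells. The share of wild-type cells with at least 1 SNZ1 UMI was 1.55% to 2.57% in untreated libraries, 1.81% and 2.04% at 0 to 10 min and 3.77% and 4.74% at 10 to 20 min. It was 10.7% and 10.8% at 20 to 30 min, 30.6% and 40.9% at 30 to 40 min and 64.9% and 74.8% at 40 to 50 min. At 50 to 60 min it was 82.1% (95% exact Clopper-Pearson interval 80.2% to 83.9%) in culture 1 and 87.5% (86.9% to 88.0%) in culture 2. The cultures differed in depth, so each cell was also thinned to 1000 UMIs, leaving out 7353 shallower wild-type and 607 deletion cells. The SNZ1 share of deletion cells was 13.5% and 15.5% at 50 to 60 min, or 3.98% and 6.54% after thinning. In wild-type cells the thinned share rose from 0.474% to 0.585% before the drug to 70.9% and 74.5% at the end. Intervals cover counting error only. For comparison, UMIs of the deleted gene FPR1 were in 12.9% and 16.6% of deletion cells of the last interval. Free RNA, wrongly assigned cells or droplets with more than 1 cell could each give them, and their source was not tested. Median depths of deletion cells in that interval were 6234 and 3246 UMIs, against 1729 and 2856 in wild-type cells.

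**Figure D3:**
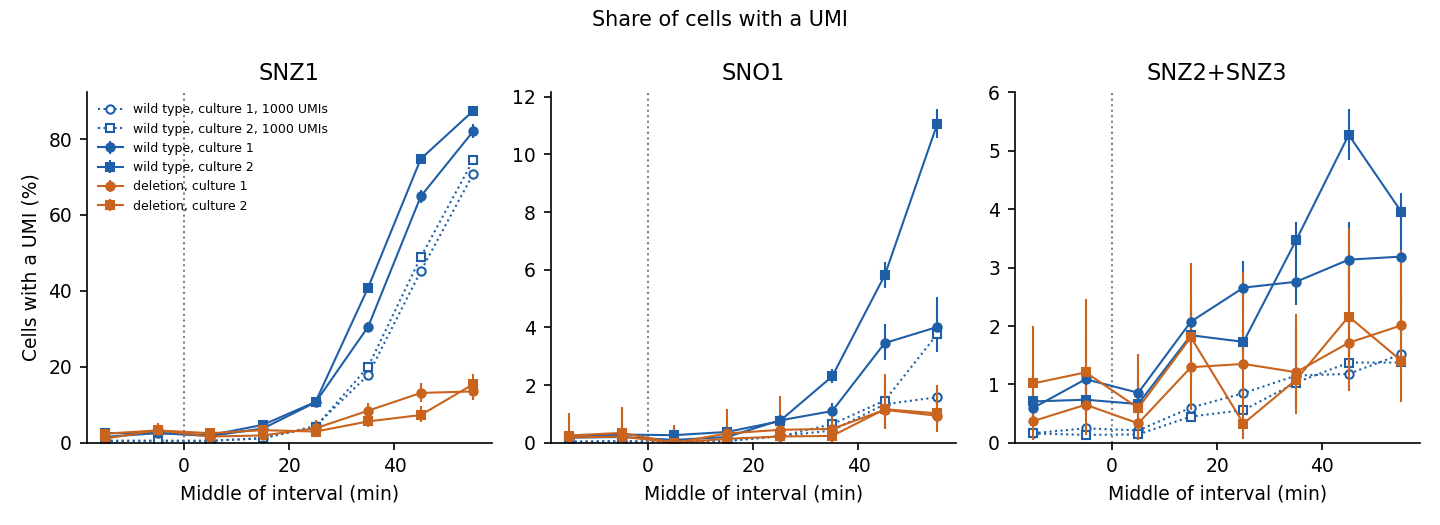
Share of cells with at least 1 UMI (y axis, percent) by middle of the interval (x axis, minutes), 1 point per culture with its 95% Clopper-Pearson interval. Open points and dotted lines are wild-type cells thinned to 1000 UMIs. The unthinned wild-type SNZ1 share reached 82.1% and 87.5%, that of deletion cells 13.5% and 15.5%.

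Within the last interval the counts per cell were uneven but not set by a few cells. The mean rose from 0.0161 to 0.0272 SNZ1 UMIs per wild-type cell in untreated libraries to 3.77 and 6.18. Cells with SNZ1 held a median of 3 and 6 UMIs and at most 47 and 62, and 8.45% and 22.2% of cells held 10 or more. The top 10% of cells by SNZ1 held 36.1% and 30.5% of its UMIs, beside 30.4% and 20.5% of all UMIs in the top 10% by total. Without the 5% of cells with the most UMIs, where droplets with more than 1 cell would lie, the thinned share was 71.7% and 74.6%.

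SNO1 UMIs were in 4.02% and 11.1% of wild-type cells at 50 to 60 min, or 1.58% and 3.77% after thinning, against 0.180% to 0.287% of untreated cells unthinned. SNZ2 or SNZ3 UMIs were in 3.19% and 3.96% of cells, against 0.597% to 1.09% before the drug. SNO1 was found more often in cells that held SNZ1: 4.46% and 12.4% of cells with SNZ1 and 1.98% and 2.01% of cells without it held SNO1 at 50 to 60 min. After thinning, cells with both were 1.06 and 1.17 times as frequent as the product of the shares. The same ratio was 5.49 and 3.08 at 20 to 30 min, 2.08 and 2.02 at 30 to 40 min and 1.28 and 1.35 at 40 to 50 min. This ratio cannot exceed the inverse of the SNZ1 share, a ceiling that fell as the share rose. The part of that ceiling in the fall of the ratio was not tested. The thinned share of cells with both went from 0.0567% and 0.0282% at 20 to 30 min to 1.19% and 3.28% at the end. Earlier libraries held at most 6 cells with both. CTF13, the neighbour of SNO1, was also found more often with SNZ1. At 50 to 60 min 25.0% and 34.7% of cells with SNZ1 held CTF13, against 9.24% and 7.61% of those without. The thinned ratio of SNZ1 with CTF13 was 2.71 and 3.16 at 20 to 30 min and 1.89 and 1.88 at 30 to 40 min. It was 1.31 and 1.38 at 40 to 50 min and 1.15 and 1.15 at 50 to 60 min. SNZ1 with SNZ2 or SNZ3 gave 1.12 and 1.01 at 50 to 60 min, beside 1.06 and 1.17 for SNZ1 with SNO1. The cultures thus did not share an order of these pairs. Cells of a library are not replicates, and these ratios carry no test.

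The deposited table gives each cell a strain code, overnight cultures having been pooled from a plate into each flask, and SNZ1 differed among them at the end of the hour. In culture 2 at 50 to 60 min, 65 of the 72 codes had 1823 to 2313 SNZ1 CPM of total UMIs (median 1992). The other 7 codes had 960 to 1217 CPM (median 1066), with no overlap. These 7 codes were set apart, after their values were seen, by UMIs of the mitochondrial genome before the drug: 0.00200% to 0.00328% of UMIs, against 0.0185% to 0.0236% in the other codes. Summed over cells, the 7 codes had 1075 CPM of SNZ1 and the others 2000 CPM. In culture 1, 5 of these codes held 13 cells at that time and had 902 CPM against 1602 CPM when summed, but single codes ran from 0 to 2157 CPM and overlapped the others (1038 to 2290 CPM). Before the drug the classes did not keep this order: at -20 to -10 min the low class had 4.42 against 4.41 CPM in culture 1 and 9.14 against 5.08 CPM in culture 2. Of cells in the low class of culture 2, 52.4% held an SNZ1 UMI at 50 to 60 min against 88.9% in the others, at median depths of 1537 and 2926 UMIs. The difference is a description with no test.

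**Figure D4:**
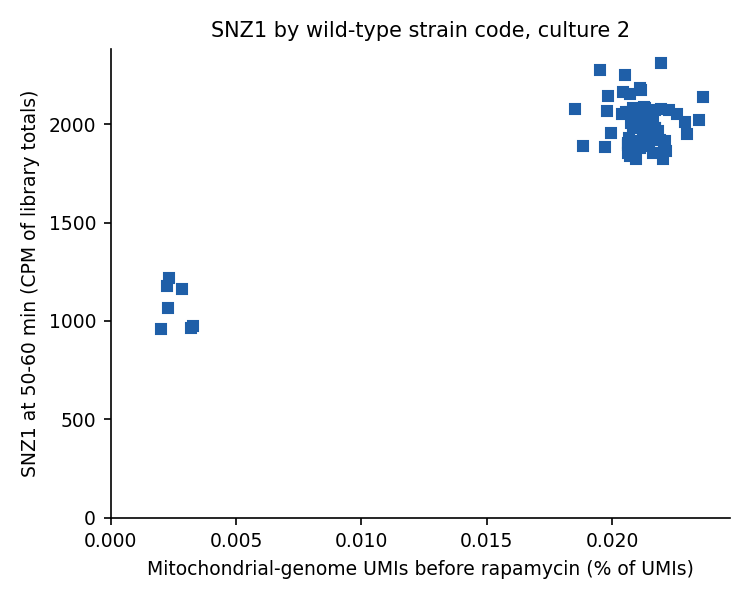
SNZ1 level of each of the 72 wild-type strain codes in culture 2 at 50 to 60 min (y axis, CPM of total UMIs) against the share of mitochondrial-genome UMIs in the same code before the drug (x axis, percent), 1 point per code. The 7 codes at the left have 960 to 1217 CPM and the 65 at the right 1823 to 2313 CPM.

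Deletion cells in the same flasks gave the level of the genes without the drug's binding protein. SNZ1 levels of deletion sums were 5.51 and 7.12 CPM at -20 to -10 min, 10.6 and 8.19 CPM at -10 to 0 min, 5.67 and 8.21 CPM at 0 to 10 min and 5.85 and 7.56 CPM at 10 to 20 min. They were 8.90 and 7.56 CPM at 20 to 30 min, 21.6 and 12.8 CPM at 30 to 40 min, 39.6 and 21.6 CPM at 40 to 50 min and 54.5 and 70.8 CPM at 50 to 60 min. The deletion sums stayed within the untreated range up to 30 min and were above it afterwards. Before the drug no member that passed the filter was called between genotypes in edgeR's test (SNZ1 -0.33 in wild type against deletion, adjusted p = 0.823), where 0.541% of genes passed. SNO1, SNZ2 and SNZ3 held at most 5 UMIs in each of these deletion sums. The fit did not pair the sums of a library. In CPM of total UMIs deletion SNZ1 was 106% and 124% of wild type at -20 to -10 min and 160% and 162% at -10 to 0 min. At 0 to 20 min against untreated deletion cells 0.0% of genes passed, with 192 of 5549 at an unadjusted p under 0.05 and 0 in DESeq2.

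At 40 to 60 min SNZ1 in deletion cells had a log2 difference of 2.50 (SE 0.21) from untreated deletion cells. Deletion cells shared their libraries with wild-type cells, which carry the rise by which SNZ1 was chosen, so it is given with no test. In this comparison 18.7% of genes passed edgeR's test. SNO1 had 1 or 2 UMIs in each untreated deletion sum, 0 at 0 to 10 min, and 8 and 9 UMIs (1.74 and 2.75 CPM) at 50 to 60 min. Its log2 difference at 40 to 60 min was 1.57 (adjusted p = 0.0723), with SNZ2 at 0.41 (adjusted p = 0.661) and SNZ3 at 0.74 (adjusted p = 0.506), and none of these was called. SNO1 passed at 1.57 when the 0 to 10 min library of culture 1 (adjusted p = 0.0477) or culture 2 (adjusted p = 0.0481) was left out. In CPM of total UMIs the SNZ1 level of deletion cells was 3.01% and 3.93% of that of wild-type cells at 50 to 60 min. The FPR1 level of deletion cells was 3.18% and 4.10% of the wild-type level in that interval, and 1.25% to 2.87% before the drug. Deletion cells with an FPR1 UMI had 246 and 228 SNZ1 CPM at 50 to 60 min (96 and 130 cells), and those without had 19.8 and 44.4 CPM (650 and 653 cells). With cells holding an FPR1 UMI left out, an alternative chosen after seeing the data, the log2 difference of SNZ1 was 1.42, also given with no test. In the last interval 17 cells held 113 of 250 SNZ1 UMIs in culture 1, and 15 held 95 of 232 in culture 2. The part of wild-type RNA or wrongly assigned cells in this rise was not tested. This comparison and the one at 0 to 20 min share their untreated sums.

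CTF13, whose 3′ end faces that of SNO1, rose in the same wild-type steps as SNO1 and also in the first one, and MTG1, which faces SNZ1, rose in the last step alone. The sources used here do not say whether counting used the strand, so reads of SNO1 and CTF13, and of SNZ1 and MTG1, cannot be told apart where a transcript runs into its neighbour. CTF13 had 1.52 to 1.92 CPM in untreated wild-type sums, 4.20 and 4.27 CPM at 10 to 20 min, 29.8 and 27.5 CPM at 30 to 40 min and 95.9 and 86.8 CPM at 50 to 60 min. It was above SNO1 in every wild-type sum, with 6.76 and 3.47 CTF13 UMIs for each SNO1 UMI at the end. In edgeR's test CTF13 rose by 1.17 (adjusted p = 1.27e-05), 1.94 (adjusted p = 2.64e-10) and 2.20 (adjusted p = 5.47e-13) over the 3 wild-type steps. In deletion cells CTF13 rose by 1.69 (adjusted p = 0.000429) at 40 to 60 min, and by 1.17 (adjusted p = 0.0265) without cells holding an FPR1 UMI. Wild-type cells at 50 to 60 min were thinned to 1000 UMIs. Those with SNZ1 and CTF13 together were then 1.15 and 1.15 times as frequent as the product of the shares.

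MTG1 rose late in the single cells. Its wild-type level was 18.3 to 20.8 CPM before the drug, 26.8 and 30.9 CPM at 30 to 40 min and 67.3 and 60.0 CPM at 50 to 60 min. In the first wild-type steps it had log2 differences of -0.09 and 0.25, not called, and in the last it rose by 1.18 (adjusted p = 5.60e-07, edgeR). In deletion cells at 40 to 60 min MTG1 had 0.12 (adjusted p = 0.742). DDI2, a cyanamide hydratase gene whose 3′ end lies 78 bases from that of SNO2, went from a mean of 0.0614 CPM to 2.57 CPM. DDI3, in the same place beside SNO3, went from 0.0451 CPM to 1.51 CPM and did not pass the low-count filter. THI12 and THI5, the thiamine precursor genes that follow SNZ2 and SNZ3 on the same strand, did not pass the low-count filter, with 15 and 33 UMIs in wild-type cells.

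**Figure D5:**
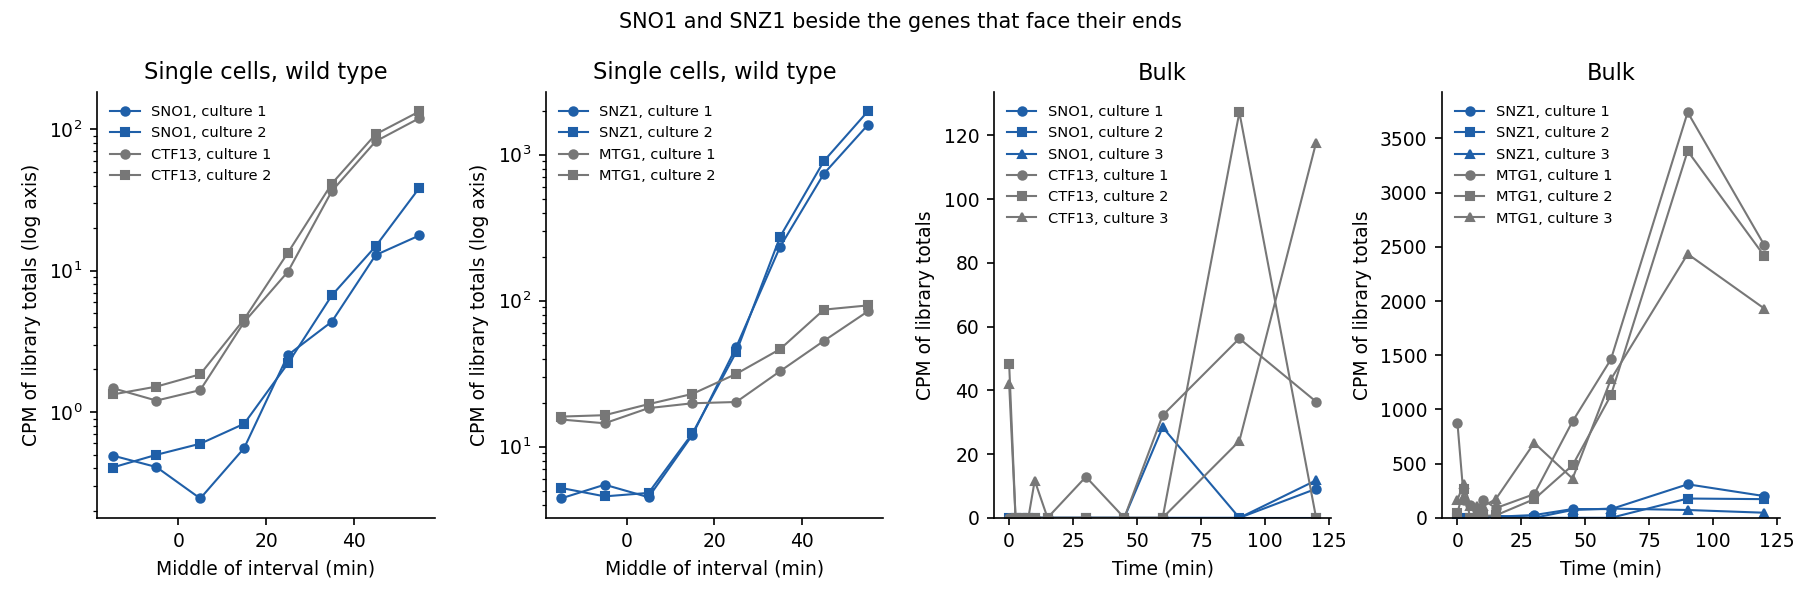
Level of SNZ1 and SNO1 beside that of their convergent neighbours MTG1 and CTF13 (y axis, CPM of library totals) by time from rapamycin (x axis, minutes), in single-cell wild-type sums (left panels, log axis) and in bulk libraries (right panels, linear axis), 1 point per culture. In bulk MTG1 lies above SNZ1 in each library that holds either RNA, whereas in single cells SNZ1 lies above MTG1 from the 20 to 30 min interval on.

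The bulk cultures showed the opposite order of SNZ1 and MTG1. Bulk totals were low, 3800 to 111293 counts with a median of 41501, so single counts decide most members. SNZ1 had 0 counts in all 3 cultures through 10 min, 1, 0 and 1 at 15 min, 2, 0 and 0 at 30 min, 1, 0 and 2 at 45 min and 5, 0 and 3 at 60 min. It had 11, 7 and 3 counts at 90 min (309, 178 and 72.3 CPM of totals) and 22, 6 and 4 counts at 120 min (200, 172 and 47.1 CPM). Every culture thus held SNZ1 at 90 and 120 min, and none at 0 min. The 0 min libraries held only 8017, 41406 and 23822 counts, where 3 counts would be 374, 72.5 and 126 CPM. The later levels of cultures 1 and 3 lay below these values, so 0 counts there cannot be told from the later level. MTG1 had 7, 2 and 4 counts at 0 min (873, 48.3 and 168 CPM), 91, 15 and 45 counts at 60 min (1462, 1131 and 1278 CPM) and 276, 84 and 164 counts at 120 min (2514, 2414 and 1930 CPM). All 3 cultures were higher at 60 and 120 min than at 0 min. MTG1 had 12.1 to 41.0 counts for each SNZ1 count at 90 and 120 min, against 0.0528 and 0.0468 in the single-cell wild-type sums at 50 to 60 min, so the order of the convergent genes differed between the assays. SNO1 had 1 count in each of 3 bulk libraries, at 60 min in culture 3 and at 120 min in cultures 1 and 3. SNZ2, SNZ3, SNO2 and SNO3 had 0 counts in all 33 bulk libraries, and CTF13 at most 10.

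In edgeR's fit of the 910 bulk genes that passed the filter, MTG1 rose by 3.54 (SE 0.54, adjusted p = 8.75e-08) at 90 to 120 min against 0 min, where 50.8% of genes passed. It rose by 2.24 (SE 0.28, adjusted p = 3.89e-08) against 30 to 60 min, where 22.1% passed. At 30 to 60 min against 0 min it had 1.30 (adjusted p = 0.0535), or 1.30 (adjusted p = 0.0357) with the culture as a block. It was 2.51 (adjusted p = 0.00500) without culture 1, 0.63 (adjusted p = 0.505) without culture 2 and 1.31 (adjusted p = 0.0852) without culture 3, and 43.0% passed. No member passed the bulk filter. In the fit with no filter SNZ1 passed at 90 to 120 min against 0 min (adjusted p = 0.00643, no fold since it was listed with 0 counts at 0 min) and against 30 to 60 min, with 2.34 (SE 0.57, adjusted p = 0.00491). It did not pass at 30 to 60 min against 0 min (adjusted p = 0.409). In that fit 9.02%, 2.42% and 7.12% of 5324 genes passed in these comparisons.

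Some other genes of vitamin B6 metabolism fell or rose early, and most rose in the last step. Of 6 such genes, 1 rose and 3 fell from 0–10 to 10–20 min, 1 rose from 10–20 to 20–40 min and 4 rose from 20–40 to 40–60 min. Of all genes 19.0%, 20.4% and 22.1% rose and 20.1%, 22.2% and 18.7% fell in these steps. PDX3, the oxidase that makes pyridoxal phosphate from pyridoxine phosphate, rose by 0.48 in the first step, while BUD16, a pyridoxal kinase, fell by 0.46. TPN1, the pyridoxine transporter, rose by 0.55 in the second step and by 0.74 in the last. BUD16 rose by 0.66 and BUD17, a putative pyridoxal kinase, by 0.52 in the last step. In deletion cells at 40 to 60 min none of the 6 was called, where 18.7% of all genes passed. PDX3 rose by 1.92 (SE 0.73, adjusted p = 0.0232, edgeR) in bulk at 90 to 120 min against 0 min.

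Genes of amino acid synthesis known as Gcn4 targets went in both directions at first and mostly up later. Of 18 such genes, 6 rose and 4 fell in the first step, 12 rose and 1 fell in the second and 16 rose in the last. The shares over all genes were 19.0%, 20.4% and 22.1% higher and 20.1%, 22.2% and 18.7% lower. Their median log2 differences were 0.15, 0.68 and 0.81, against 0.04, 0.03 and 0.05 over all genes. ARG4, an arginine synthesis gene, rose by 3.08 in the first step and 1.77 in the second, and HIS5, a histidine synthesis transaminase gene, by 1.35 in the second and 1.57 in the last. In deletion cells at 40 to 60 min 5 of the 18 rose and 5 fell, with ARG4 at 2.38, ARG1 at 1.30 and LEU4 at 1.09. There 8.61% of all genes rose and 10.1% fell. Of 18 thiamine genes 16 were tested: 5 rose and 3 fell in the first step, 8 rose and 1 fell in the second and 7 rose in the last. THI13, a thiamine precursor synthesis gene with near-identical copies, rose by 1.51 and 1.08 in the first steps, and PHO3, an acid phosphatase gene, fell by 1.33 and by 1.71. GLN3, the GATA activator gene, rose by 0.36, 0.75 and 0.80 over the steps, and GAT1 rose by 0.84 and then fell by 0.43. GCN4 RNA fell by 0.32 in the first step and rose by 0.50 in the last.

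The genes most like SNZ1 over the 16 wild-type sums were GLN3 (Pearson r = 0.9955), YAT2, a carnitine acetyltransferase gene (0.9941), HIS5 (0.994), HIS4, a histidine synthesis gene (0.9936), and SDT1, a pyrimidine nucleotidase gene (0.9933). SNO1 came at rank 38 with r = 0.985, SNZ2 at rank 732 and SNZ3 at rank 1050. Wild-type sums through 10 min held only 13 to 30 SNO1, 38 to 72 SNZ2 and 21 to 49 SNZ3 UMIs. Counting error lowers r at such counts, and its part in these ranks was not tested. SNZ1 was itself the gene most like SNO1, followed by GLN3, HIS5, HIS4 and CPA1, a gene of arginine-specific carbamoyl phosphate synthesis. These r are over log2 CPM of the same 16 sums, 8 intervals in each of 2 cultures, and describe a shared course in time. The levels behind them differed: from untreated cells to 50 to 60 min GLN3 went from 23.7 to 87.3 CPM, YAT2 from 14.3 to 359 CPM, HIS5 from 49.6 to 582 CPM and HIS4 from 165 to 893 CPM, beside 6.19 to 1278 CPM for SNZ1.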

How the data were processed

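Single-cell RNA-seq (10x 3′ chemistry) and bulk 3′-end RNA-seq were deposited by the authors as raw counts per gene, with no normalization. Kallisto 0.46.1, bustools 0.39.3 and bcl2fastq and the build sacCer3 are named in the submitters' processing notes. The deposited single-cell counts are UMIs per cell, with genotype, culture, interval and strain code per cell, per the file headers, and the lowest total of a cell was 500 UMIs. Whether the bulk counts are UMIs or reads, how multi-gene reads were counted and whether strand was used is not stated in the labels or notes, and neither is any doublet removal.

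Counts were summed per library and genotype. edgeR 4.0.16 (R 4.3.3; TMM, filterByExpr, robust quasi-likelihood test, 1 coefficient per genotype and interval) was fitted to all 32 sums (5549 genes, 16 residual degrees of freedom) and, separately, to all 33 bulk libraries (910 genes, 22 residual degrees of freedom), with Benjamini-Hochberg adjustment over all genes tested. Intervals of a comparison were weighted equally. TMM factors ranged from 0.788 to 1.62. The fits were tested on simulated data. Alternatives were RLE scaling, library totals, no filter, DESeq2 1.42.0, each library left out, SNZ2 and SNZ3 summed, and the culture as a block. Culture numbers pair the sums, since each culture was sampled serially per the labels; over 28 pairs of intervals, deviations of same-numbered sums had a correlation of -0.0308 to 0.838 (median 0.259, 23 over 0.1). Members of the bulk table failed its filter, so the fit without it is given. Thinned shares are hypergeometric expectations, and no doublet caller was run. Sequences are from RefSeq R64. The 6 genes were named by rule, with their neighbours, the 5 genes most like SNZ1 and SNO1, and up to 3 called genes per list of largest change. Members and lists were chosen with earlier results of these data known. Genotype PCR libraries were not analysed here.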

Additional observations from a re-analysis of the deposited data

How the results depend on the processing

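No alternative turned the direction of a called value. Of 550 values of the 4 members that passed the filter, under the alternatives, 525 stayed on their side of the threshold. Another 11 newly passed it and 14 no longer did, and those that changed are SNO1, SNZ2 and SNZ3 comparisons. All SNZ1 values stayed, 96 with a library left out and 39 under other settings. They include its wild-type steps, pieces of the rise by which it was chosen, and its difference in deletion cells of the same libraries. This tally is no support for either. SNZ2 over 20–40 to 40–60 min was 0.56 (adjusted p = 0.0562, edgeR) with no filter. With library totals SNZ2 and SNZ3 passed from 10–20 to 20–40 min (0.80 and 0.81), and SNZ3 in the last step (0.56). MTG1 in bulk passed at 30 to 60 min with RLE (1.68), library totals (1.54) and DESeq2 (1.57), and not with no filter (1.43, adjusted p = 0.0608). Library totals moved the median log2 difference of all genes to 0.31, 0.36 and 0.17 in the wild-type steps and 0.22 in deletion cells at 40 to 60 min, and the share of calls that were higher from 48.7%, 47.9%, 54.1% and 46.1% to 72.1%, 84.2%, 76.9% and 88.7%. RLE gave 35.6% and DESeq2 36.2% in the deletion cells. In bulk, RLE moved the medians from 0.20 to 0.58 at 30 to 60 min and from 0.31 to 0.81 at 90 to 120 min.

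Genes called with each library left out numbered 1551 to 2166, 1387 to 2402 and 1653 to 2264 in the wild-type steps (2170, 2364 and 2268 with all). They numbered 0 to 1 in deletion cells at 0 to 20 min and 666 to 1036 at 40 to 60 min (1036 with all). Wild type against deletion before the drug gave 30 genes, 8 to 29 with a library left out, 9 with library totals, 108 with the replicate block and 76 with DESeq2. In bulk, 2.5 to 15 min gave 33 genes, 2 to 28 with a culture left out, 21 with library totals and 13 with no filter. Leaving out a culture gave 199 to 378 at 30 to 60 min, 278 to 452 at 90 to 120 min and 96 to 139 against 30 to 60 min, where no filter gave 129. The replicate block changed no other call of the members than those given beside the results.

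Shares at 50 to 60 min, 70.9% and 74.5% for SNZ1 at 1000 UMIs, were 82.1% and 87.5% unthinned and 52.5% and 55.3% at 500 UMIs. SNO1 was 4.02% and 11.1% unthinned and 1.04% and 1.89% at 500 UMIs. Depth limits SNO2 and SNO3 in every sum, and all members in bulk, where SNZ1 too failed the low-count filter. With 2 cultures the spread is pooled over all sums.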

Other observations

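The strain codes low in mitochondrial-genome UMIs, a class set after seeing the data, had SNZ1 levels above those of the other codes early and below them late, with no steady order between. In CPM of total UMIs they had 17.8 against 4.30 of SNZ1 at 0 to 10 min in culture 1 (14 UMIs in 388 cells) and 10.8 against 4.63 in culture 2 (16 UMIs in 580 cells). At 20 to 30 min they had 29.7 against 48.3 in culture 1 and 45.3 against 44.4 in culture 2. At 30 to 40 min they had 262 against 234 in culture 1 and 208 against 276 in culture 2. At 40 to 50 min they had 350 against 744 in culture 1 (20 UMIs in 39 cells) and 645 against 911 in culture 2. These values are descriptions of 2 cultures and carry no test.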
